A study of Mus musculus with 8 samples.

Results

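The genes of mitochondrial fusion and fission were followed in C2C12 cells, a mouse myoblast line, after silencing of the long non-coding RNA Pvt1. The set held 10 genes: Mfn1, Mfn2, Opa1, Oma1, Yme1l1, Dnm1l, Fis1, Mff, Gdap1 and Mtfp1. They were found as the spots that are not controls and carry one of these names in the scanner files. They had 26 probes, of 56605 probes and 27248 named genes on the array.

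Mitochondria form a network that is remodelled all the time by fusion and fission. Fusion of the outer membrane is carried out by the mitofusins and fusion of the inner membrane by Opa1, a GTPase whose long and short forms are set by the proteases Oma1 and Yme1l1. Fission is carried out by Dnm1l (Drp1), a GTPase recruited from the cytosol to receptors on the outer membrane such as Mff and Fis1. In skeletal muscle the balance between fusion and fission is known for its part in mitochondrial quality and in atrophy.

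Both groups were proliferating C2C12 cultures at passage 10 transfected with Lipofectamine and antisense LNA GapmeRs, oligonucleotides that pair with an RNA and lead RNase H to cut it. For silencing in cultured cells the study's methods name the GapmeRs Pvt1_1 and Pvt1_3. Whether each of the 4 silenced cultures received both is not given in the sources used here. The 4 control cultures received the supplier's negative control GapmeRs, whose sequences are not given in the sources used here. All cultures come from 1 cell line, and a Pvt1-targeting effect cannot be told apart here from an effect of these 2 GapmeR sequences, which are printed because they define the silenced group:

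Pvt1_1: accgtagtagagttaa
Pvt1_3: agtcaacgcttcacat

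Each array was read in 1 colour, and levels are given as log2 of the processed signal after quantile normalization. A probe was tested where at least 3 of 4 values were present in each group, and was called where limma's p, adjusted by the Benjamini-Hochberg method over all 28649 tested probes, was under 0.05. Positive and significant spots made up 58.8% to 62.5% of control arrays and 59.8% to 61.0% of 3 silenced arrays, but 51.6% of silenced replicate 4. Silenced replicate 4 had the lowest value of its group at 18 of the 18 member probes with a value on every array, as it had at 87.4% of all such probes. It was the lowest of all 8 arrays at 17 of the 18, against 61.3% of all such probes. Control replicate 3 correlated less with its group (mean r 0.960) than the other 3 controls did (0.982 to 0.983). The brightest Pvt1 probe fell from 9.86 ± 0.30 (SD, n = 4) to 7.00 ± 0.63 (SD, n = 4), a change of -2.86 (SE 0.32, adjusted p = 0.000682 in limma), and both tested Pvt1 probes were lower. Of 6 myoblast markers 5 were well above background on every array, while Myf5 was so on none, and 3 were called lower, where 13.2% of all genes by brightest probe were. The summed linear signal of these markers was 139143 to 169120 on control and 100918 to 128872 on silenced arrays. That of 7 differentiated muscle markers was 2952 to 4588 and 2011 to 2394, with 2 of 6 tested genes called lower (Acta1 and Myh1) and 3 of the 7 well above background on none of the silenced arrays. That of 10 liver markers was 951 to 1792 on control and 5819 to 7108 on silenced arrays, with 2 of the 10 genes well above background on every control array and 7 on every silenced array. That of 5 macrophage markers was 1752 to 1875 and 3884 to 6752, with Cd68 called higher, Csf1r called lower, and Adgre1 and Lyz2 not well above background on any array. The part of these differences in the results below was not tested.

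Most of the results turn on pairs of probes that lie at different places along 1 gene. The last 30 bases are shown for probes of Mfn1, Mfn2, Opa1, Yme1l1, Fis1 and Mff, 5′ to 3′ as deposited. A reader can thus see which stretch of the transcript gave which value. The Oma1 pair, whose difference did not fall (change 0.09), is not shown. For Yme1l1 the middle probe is shown in place of the tested probe nearest the 5′ end, a choice made after its values were seen. Capitals mark a polyadenylation signal, AATAAA or ATTAAA. The first probe of each pair lies nearer the 5′ end of the gene.

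Mfn1 A_55_P2609846: cgatagactggactttatccgaaaccagat
Mfn1 A_55_P2070277: agtaaagactgaattgttaaggttaaatga
Mfn2 A_55_P2172747: tttgctgggacagtgatggtcttggccaag
Mfn2 A_51_P266774: ttatgccaccagggagagcctgtatctgag
Opa1 A_52_P547795: ctagagaaaaacgttaaagaggtattagaa
Opa1 A_55_P2843001: gtagatgggtaATTAAAggatactgaagtg
Yme1l1 A_52_P444849: tgctattattgcatattacacaaaggatgc
Yme1l1 A_65_P18087: ggagattagtaactcatagcaaatacgtga
Fis1 A_51_P291866: aaagatggactggtaggcatggccatcgtt
Fis1 A_55_P2829703: gcaatgagtgtaAATAAAattgggccgtgg
Mff A_55_P2739683: ctcctcaaagcgaagagacctgtgttgcgt
Mff A_55_P2498056: tttcatcttagttttctatcaagtatgttt

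On build mm9 the Mfn1 probes cover chr3:32461937-32461996 and chr3:32476215-32476274 on the plus strand, and start at bases 1321 and 2598 of transcript NM_024200. The Mfn2 probes cover chr4:147248131-147248190 and chr4:147247695-147247748 on the minus strand, at base 4063 of NM_001285920 and base 4218 of NM_133201. The Opa1 probes cover chr16:29629784-29630207, which spans an intron, and chr16:29654613-29654672 on the plus strand. Those of Yme1l1 cover chr2:23048648-23048707 and chr2:23052695-23052754 on the plus strand, at bases 1798 and 2485 of NM_013771. Those of Fis1 cover chr5:137441507-137441812, again across an intron, and chr5:137442037-137442096 on the plus strand. Those of Mff cover chr1:82727811-82743670, across an intron or several, and chr1:82748825-82748884 on the plus strand. Whether a probe lies in the coding part or in a UTR was not analysed here. Either polyadenylation signal was searched in the whole probe, on the strand as deposited. It was found in 3 of the 26 member probes (in Opa1, Oma1 and Fis1, each the probe nearest the 3′ end) and in 13.4% of all probes on the array.

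After Pvt1 silencing 4 member probes were lower, 1 each of Mfn1, Mfn2, Yme1l1 and Fis1, and none was higher. These 4 were found among 19 tested probes of 9 genes, and the other 15 tested probes were not called. Of all tested probes 18.4% were lower and 4.79% higher (23.2% in either direction), so the count of 4 in 19 was near the background and is no result about the set. No member probe had a positive change at an unadjusted p under 0.05 in limma, and none was called higher by the methods' t-test. Change was negative at 17 and positive at 2 of the 19 probes, with a median of -0.28 against -0.19 over all tested probes. With 1 probe of Mfn1, dim in silenced cells, set at its bound the median was -0.20. Without silenced replicate 4 the median was -0.03 with 7 positive changes, and with cyclic loess it was -0.01 with 9. With the series table it was 0.02 and with no mask 0.03, each with 10 positive changes. Of 18 member probes with all 8 values 5 had groups that did not overlap, against 28.5% of such probes on the array. In bulk RNA, fewer cells of a kind and less RNA per cell cannot be told apart.

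The balance over the whole array moved with the processing. Of all called probes 79.3% were lower as processed here and 76.1% with the shift to the 75th percentile. The share was 49.3% with cyclic loess, which moved the median change of all probes from -0.19 to 0.02, 49.0% with no mask of dim spots and 49.7% with the authors' series table. Without silenced replicate 4 it was 58.3%, with a median of -0.02. The 4 called member probes stayed negative under each of the alternatives that gave them a value. The count of called member probes was 2 without control replicate 2, where 13.8% of all probes were called, and 2 without control replicate 4 (13.5%). It was 1 without silenced replicate 1 (17.2%), 2 without silenced replicate 3 (18.7%) and 2 with the row of the slide as a block (10.85%). It was 6 of 19 with the shift to the 75th percentile, where 31.6% of all probes were called, and 6 of 19 with cyclic loess (1 of them higher), where 37.3% were. It was 5 of 16 with the stricter filter on dim spots (30.02% of all probes), 5 of 26 with the series table (19.6%) and 5 of 26 with no mask (17.3%), so these counts too lay near the background. Controls 1, 2 and 3 and silenced 1 lay in one row, and control 4 and silenced 2, 3 and 4 in the other.

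**Figure D1:**
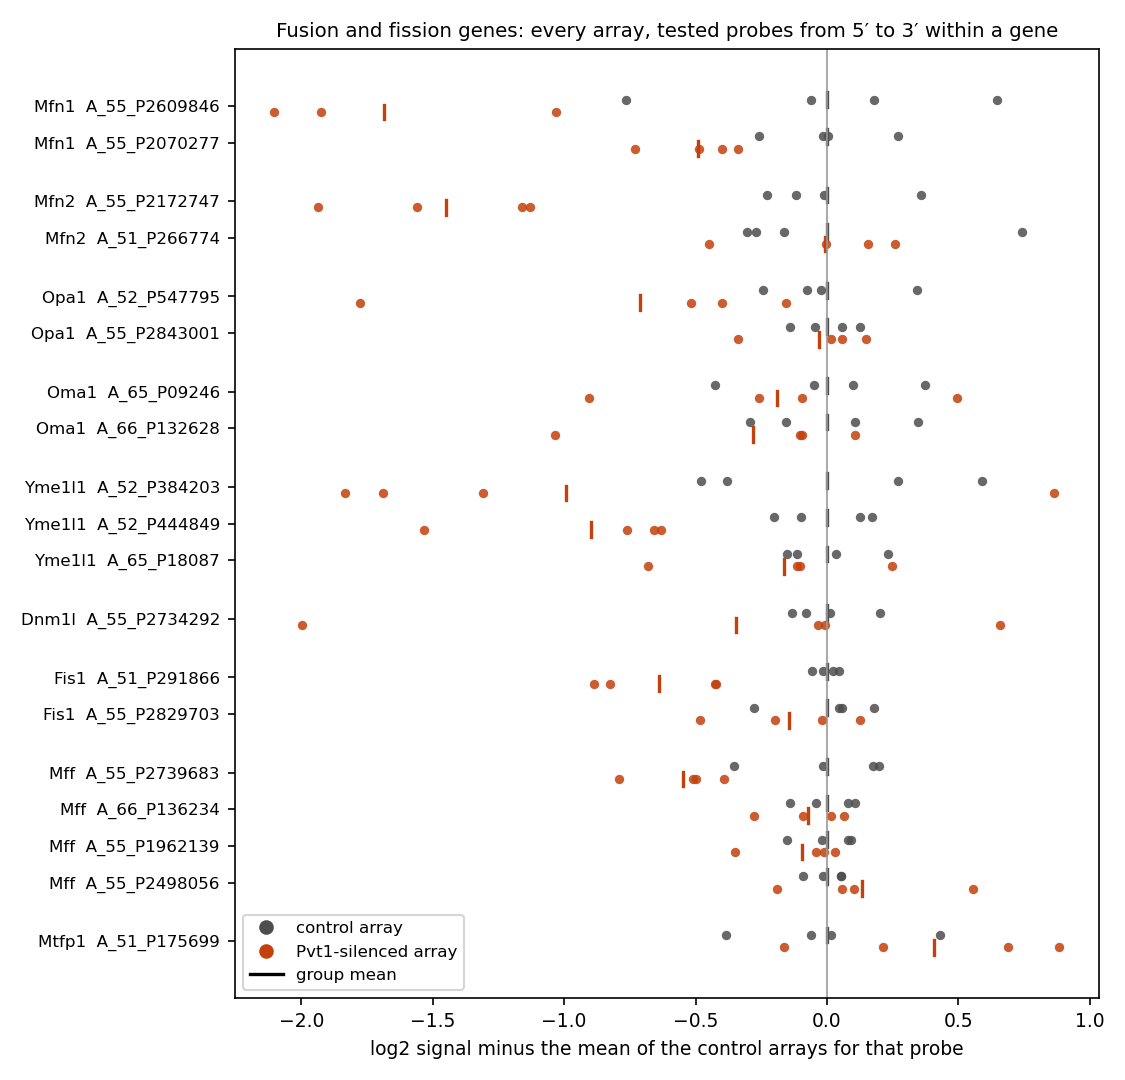
Log2 signal of each tested probe on every array, minus the control mean of that probe (x axis), with probes ordered from 5′ to 3′ within a gene (y axis); grey points are control arrays, orange points are silenced arrays and bars are group means. The silenced arrays lie below all control arrays at both probes of Mfn1 (3 silenced values at the 5′ one) and at 1 probe each of Mfn2, Yme1l1, Fis1 and Mff, while the other probes of Mfn2, Fis1 and Yme1l1 overlap.

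Mfn2, a mitofusin that also links mitochondria to the endoplasmic reticulum, held the largest change among the member probes well above background on every array. It was measured at probe A_55_P2172747 at 10.92, 11.03, 11.51 and 11.14 on control arrays 1 to 4. On silenced arrays 1 to 4 this probe read 9.99, 10.02, 9.59 and 9.21. All silenced values lay below all control values, and the change was -1.45 (SE 0.24, 95% interval -1.99 to -0.90, adjusted p = 0.00354 in limma), a ratio of 0.367 to control. The call was kept in 19 of 19 alternatives of the processing, with changes from -1.55 to -1.22. Within the rows of the slide the change was -1.17 and -1.53.

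The probe of Mfn2 that starts 442 bases further 3′, A_51_P266774, did not move with it. It read 10.97, 10.94, 11.98 and 11.07 on control arrays and 11.50, 11.24, 11.40 and 10.79 on silenced arrays. The groups overlapped, and control 3 stood above the other controls. The change was -0.01 (SE 0.28, 95% interval -0.64 to 0.63, adjusted p = 0.989 in limma). The remaining Mfn2 probe, A_55_P2172742, was not well above background on any array and was not tested.

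Mfn1, the other mitofusin, had a dim and a bright probe. The dim one, A_55_P2609846, read 6.30, 7.01, 5.60 and 6.54 on control arrays and 4.44, 5.33 and 4.26 on silenced arrays 1 to 3, with no value on silenced 4. It was well above background on 3 control arrays and on no silenced array, so its level in silenced cells is a bound. It was at least 1.15-fold higher in controls, and the fitted difference was called lower (adjusted p = 0.0153 in limma). This call was lost with normexp background correction (adjusted p = 0.056) and with the methods' t-test (0.0803).

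The bright Mfn1 probe, A_55_P2070277, lies 14278 bases further 3′. It read 11.11, 11.38, 11.64 and 11.35 on control arrays and 10.97, 10.88, 11.03 and 10.64 on silenced arrays. The groups did not overlap, but the change of -0.49 (SE 0.20, 95% interval -0.93 to -0.04) did not pass the test (adjusted p = 0.106 in limma). It passed under 4 of 19 alternatives, among them the shift to the 75th percentile, cyclic loess and normexp.

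Opa1 was not called. Its more 5′ tested probe, A_52_P547795, read 11.00, 11.22, 11.58 and 11.16 on control arrays and 10.72, 11.08, 10.84 and 9.46 on silenced arrays. Silenced replicate 4 lay far below the rest, and the groups overlapped. The change was -0.71 (SE 0.34, adjusted p = 0.165 in limma), and -0.36 without silenced replicate 4. The probe nearest the 3′ end, A_55_P2843001, read 10.71, 10.88, 10.61 and 10.81 against 10.77, 10.81, 10.91 and 10.42, a change of -0.03 (SE 0.19, 95% interval -0.46 to 0.40). The remaining probe, A_52_P153645, had no value on any array.

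Yme1l1, the i-AAA protease that cuts Opa1 under basal conditions, had 3 tested probes along the gene. The middle one, A_52_P444849, read 10.52, 10.89, 10.62 and 10.84 on control arrays and 9.96, 10.09, 10.06 and 9.18 on silenced arrays. The silenced values all lay below the controls, and the change was -0.90 (SE 0.25, 95% interval -1.45 to -0.34, adjusted p = 0.0276 in limma). The call was lost without control replicate 2 (adjusted p = 0.0848), control replicate 4 (0.0837) or silenced replicate 1 (0.0524), when the slide row was a block (0.103), and with the methods' t-test (0.0880). Within the rows the change was -0.72 and -1.07.

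At the Yme1l1 probe nearest the 3′ end, A_65_P18087, control arrays read 11.19, 11.57, 11.22 and 11.37 and silenced arrays 11.23, 11.22, 11.58 and 10.66. These values overlapped, with a change of -0.16 (SE 0.23, 95% interval -0.69 to 0.36). The probe nearest the 5′ end, A_52_P384203, read 6.23, 6.98, 6.33 and 7.30 against 5.40, 7.57, 5.02 and 4.88, and was well above background on 4 control arrays but on 1 silenced array. Silenced replicate 2 lay above every control there and the other 3 silenced arrays below them. Its change was -0.99 (SE 0.56, adjusted p = 0.231 in limma). It was called lower without silenced replicate 2, the 1 silenced array on which it was well above background, so that call sets controls against a bound.

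Oma1, the protease that cuts Opa1 under stress, was not called at either probe. Its 3′ probe, A_66_P132628, read 7.82, 7.68, 8.32 and 8.08 on control arrays and 7.88, 8.08, 7.87 and 6.94 on silenced arrays. The groups overlapped, and the change was -0.28 (SE 0.28, adjusted p = 0.516 in limma), and -0.03 without silenced replicate 4. The other probe, A_65_P09246, was well above background on 1 of the 8 arrays.

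Among the fission genes, Fis1 was the one with a called probe. Fis1 is a small outer membrane protein that binds fission factors. Its 5′ probe A_51_P291866, at base 434 of NM_025562, read 12.72, 12.76, 12.82 and 12.80 on control arrays and 12.35, 12.36, 11.95 and 11.89 on silenced arrays. The controls lay close together and above every silenced value, and the change was -0.64 (SE 0.19, 95% interval -1.07 to -0.21, adjusted p = 0.0399 in limma). The call did not survive leaving out control replicate 1 (adjusted p = 0.0739), 2 (0.103), 3 (0.0562) or 4 (0.112), or silenced replicate 1 (0.0593) or 3 (0.0812), nor a block for the slide row (0.181) or the methods' t-test (0.0746). Within the rows it was -0.42 and -0.73.

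The 3′ probe of Fis1, A_55_P2829703, holds an AATAAA in the stretch printed above. It read 14.28, 14.61, 14.74 and 14.62 on control arrays and 14.54, 14.69, 14.36 and 14.08 on silenced arrays. The groups overlapped, with a change of -0.14 (SE 0.21, 95% interval -0.61 to 0.33).

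Dnm1l, the fission GTPase itself, was measured at A_55_P2734292. It read 12.41, 12.69, 12.50 and 12.36 on control arrays and 12.45, 12.48, 13.15 and 10.49 on silenced arrays. The silenced arrays held both the highest and the lowest value, and the change was -0.35 (SE 0.48, 95% interval -1.42 to 0.73, adjusted p = 0.654 in limma). Without silenced replicate 4 it was 0.21. The other Dnm1l probe, A_52_P554790, was not well above background on any array.

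Mff, the main receptor of Dnm1l on mitochondria, had 4 tested probes and none was called. The most 5′ probe, A_55_P2739683, read 10.93, 11.46, 11.27 and 11.48 on control arrays and 10.78, 10.89, 10.77 and 10.49 on silenced arrays. The groups did not overlap, and the change of -0.55 (SE 0.21, 95% interval -1.01 to -0.09) missed the threshold (adjusted p = 0.083 in limma), which it passed with the shift to the 75th percentile and with the stricter filter on dim spots. The other 3 probes, which start within 539 bases of each other at the 3′ end, had changes of -0.07, -0.09 and 0.13 with groups that overlapped. The remaining probe, A_52_P639540, had no value on any array.

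Mtfp1, an inner membrane protein that promotes fission, had the largest positive change of the set. Its probe A_51_P175699 read 9.15, 9.47, 9.96 and 9.55 on control arrays and 10.22, 9.74, 10.42 and 9.37 on silenced arrays. The groups overlapped, and the change of 0.41 (SE 0.28, 95% interval -0.22 to 1.04) did not pass the test (adjusted p = 0.333 in limma). It was called higher under 3 alternatives, namely cyclic loess, the authors' series table and no mask of dim spots. The other Mtfp1 probe was well above background on 1 array. Gdap1, an outer membrane protein mutated in an inherited neuropathy, had no tested probe, since its 2 probes together were well above background on 1 control array.

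**Figure D2:**
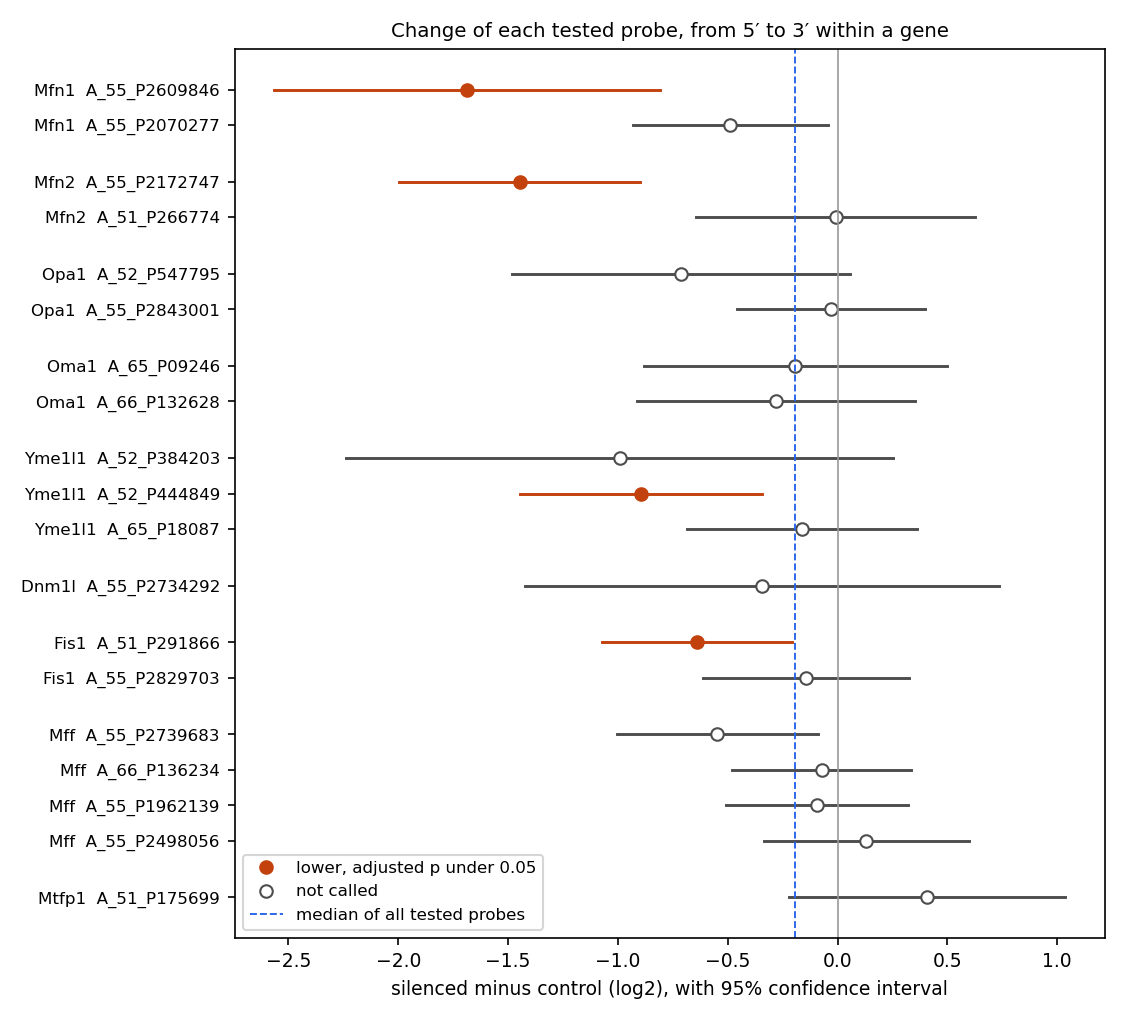
Change of each tested probe, silenced minus control on the log2 scale, with its 95% interval (x axis), ordered from 5′ to 3′ within a gene (y axis); filled points are called lower and the dashed line is the median of all tested probes. The called probes of Mfn2, Yme1l1 and Fis1 lie between -1.45 and -0.64, the called Mfn1 probe is drawn at its fitted value although its level in silenced cells is a bound, and in each of their genes the probe nearest the 3′ end lies closer to 0.

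When each gene was represented by its brightest probe, none of 9 members was called in limma, 1 (Mfn1) reached an unadjusted p under 0.05 and none was called by the methods' t-test. Among 15444 genes taken the same way 19.8% were called, 13.2% lower and 6.59% higher. The count moved with the processing. Mfn1 was called lower with the shift to the 75th percentile, normexp or the stricter filter on dim spots, Mtfp1 was called higher with the series table or no mask, and both were called with cyclic loess.

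The position of a probe along its gene went with its change. The 9 tested probes nearest the 3′ end of their gene had changes from -0.49 to 0.41 with a median of -0.14, and none was called in limma (1 at an unadjusted p under 0.05, none by the methods' t-test). The other 10 tested probes had a highest change of -0.07 and a median of -0.68 (-0.59 with the dim Mfn1 probe at its bound), and 4 were called lower. Without silenced replicate 4 the medians were 0.07 and -0.51, and with cyclic loess 0.09 and -0.51, the highest change among the 10 then being 0.05 and 0.11. Over all alternatives the median of these other probes lay between -0.73 and -0.48. The same held for the array at large. Over 6100 genes with 2 or more tested probes, the probe nearest the 5′ end was called lower in 27.8% and higher in 2.39%, and the probe nearest the 3′ end in 13.2% and 5.67%.

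How far the 5′ probe stood from the 3′ probe was then tested for each gene in its own limma fit over those 6100 genes. It asks whether the outermost tested probes of a gene moved by the same amount on the same arrays. These need not lie at the ends of the gene, and they start 442 bases apart in Mfn2 and 530 in Fis1. The log2 difference became lower in 31.8% of genes and higher in 7.11% (38.9% in all), and was negative in 70.6%, with a median change of -0.43. Among the members 7 genes had such a pair. The difference became lower in 3 of them (Mfn2, Mff and Fis1) and higher in none (none at an unadjusted p under 0.05 with a positive change), a count near the background. The median change of the 7 was -0.68, also with Mfn1 at its bound.

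In Mfn2 the 5′ minus 3′ difference was -0.09 ± 0.26 (SD, n = 4) in the control group. It was -1.53 ± 0.24 (SD, n = 4) after silencing. The control arrays lay between -0.47 and 0.10 and the silenced arrays between -1.81 and -1.22, so they did not overlap. The change was -1.44 (SE 0.21, 95% interval -1.92 to -0.96, adjusted p = 0.00132 in limma), and it was called in 17 of 17 alternatives that used these 2 probes. With the series table and with no mask the outermost 5′ probe was instead A_55_P2172742, which was well above background on none of the arrays, and Mfn2 was not called there (adjusted p = 0.90 in limma with either). For the 2 probes of the pair described first, the array design lists the same 4 RefSeq transcripts.

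In Mff, where the probes start 21014 bases apart, the difference went from -1.84 ± 0.27 (SD, n = 4) to -2.52 ± 0.27 (SD, n = 4). The groups did not overlap, and the change was -0.68 (SE 0.22, adjusted p = 0.0353 in limma). In Fis1, where they start 530 bases apart, it went from -1.79 ± 0.15 (SD, n = 4) to -2.28 ± 0.11 (SD, n = 4), again without overlap, with a change of -0.50 (SE 0.17, adjusted p = 0.0467 in limma).

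The calls of Mff and Fis1 were lost when single arrays were left out. Without control replicate 2 or 4, or silenced replicate 1 or 3, the count of member pairs was 1, Mfn2. A block for the slide row also left 1, with adjusted p = 0.0757 for Mff and 0.161 for Fis1 in limma. Within the rows the change was -0.50 and -0.99 for Mff, and -0.42 and -0.49 for Fis1.

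The other 4 pairs were not called. The Opa1 difference went from 0.48 ± 0.32 (SD, n = 4) to -0.20 ± 0.53 (SD, n = 4), without overlap. It changed by -0.68 (SE 0.29, adjusted p = 0.0951 in limma), and by -0.43 without silenced replicate 4. The Mfn1 difference missed the threshold (adjusted p = 0.0555 in limma), its 5′ probe being a bound in silenced cells. The Yme1l1 difference changed by -0.83 (SE 0.56, adjusted p = 0.268 in limma). Without silenced replicate 2 it changed by -1.43 and was called (adjusted p = 0.00859 in limma), its 5′ probe then being a bound in silenced cells. Oma1 changed by 0.09 (SE 0.20, 95% interval -0.36 to 0.54).

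For Yme1l1 the middle probe may also be set against the probe nearest the 3′ end, 4047 bases on. That difference, chosen after its values were seen and given without a test, was -0.62 ± 0.07 (SD, n = 4) in the control group and -1.35 ± 0.18 (SD, n = 4) after silencing. No silenced array reached a control array. The 3 closely spaced 3′ probes of Mff kept their spacing more nearly, with neighbour differences changing by 0.02 and -0.22.

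**Figure D3:**
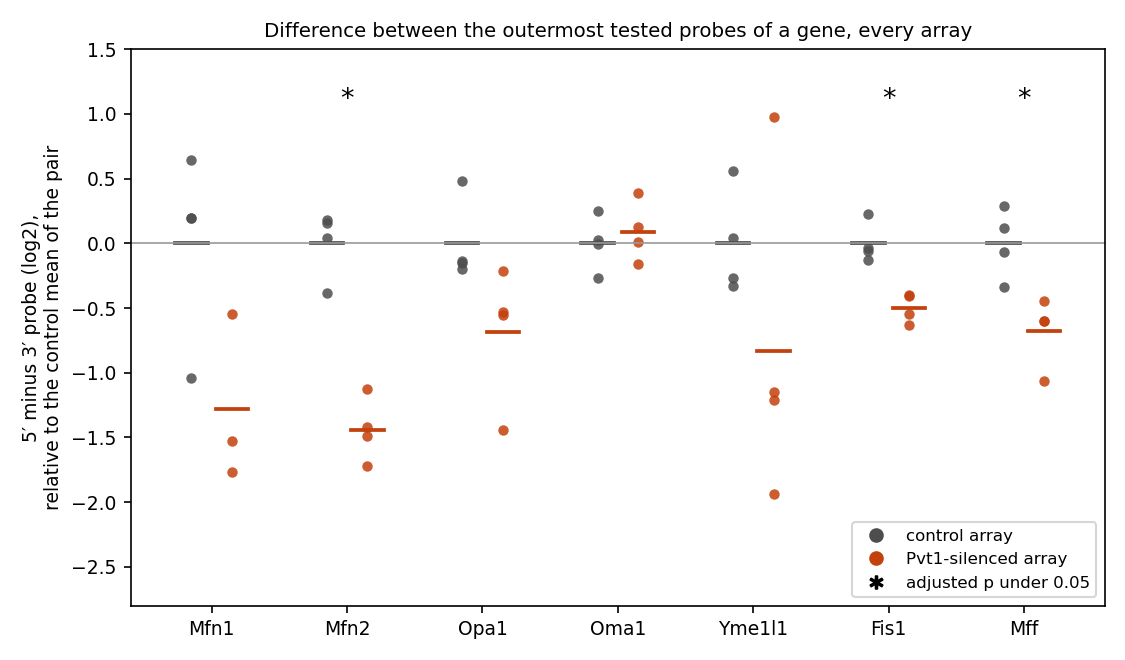
Log2 signal of the 5′ probe minus that of the 3′ probe for 7 member genes on every array, relative to the control mean of that difference (y axis, log2); grey points are control arrays, orange points are silenced arrays, bars are group means and a star marks an adjusted p under 0.05. All 4 silenced arrays lie below the controls for Mfn2, Opa1, Fis1 and Mff, and Oma1 shows no shift of that kind, its mean changing by 0.09.

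A wider list of 36 genes that act with the members was examined next, each by its brightest probe. Of 35 tested genes 1 was higher and 4 were lower, and the median change was 0.00, against -0.05 over all genes taken this way. Both counts were below the background of 6.59% higher and 13.2% lower by brightest probe. By probe, 14 of 69 tested probes were lower and 1 was higher, where 18.4% and 4.79% of all tested probes were, so neither count is a result about the list. Among the 12 regulators of fission 1 was higher and none lower, with a median of 0.43 (9 positive and 3 negative changes). Of their 22 tested probes 1 was higher and 4 were lower (2 of Dnm2, 1 of Mtfr2 and 1 of March5). Among 5 tested regulators of fusion and 4 genes of mitochondrial motility none was called by brightest probe, while 1 of 7 and 2 of 8 tested probes were lower. Of 7 inner membrane proteases and prohibitins 3 were lower, and of 7 genes of cristae organisation 1 was lower.

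Mief1 (MiD51), an outer membrane receptor that recruits Dnm1l, was the gene that rose. It read 11.24, 11.44, 11.34 and 11.52 on control arrays and 12.61, 12.29, 12.79 and 12.02 on silenced arrays. Every silenced value lay above every control value, with a change of 1.04 (SE 0.22, adjusted p = 0.00892 in limma). It was called higher in 19 of 19 alternatives, with changes from 0.92 to 1.22, and the change was 1.27 and 0.84 within the rows of the slide.

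Immt (Mic60), the core subunit of the complex that holds cristae junctions, had the largest fall. It read 13.28, 13.73, 13.60 and 13.53 on control arrays and 12.21, 12.74, 11.75 and 10.78 on silenced arrays. The groups did not overlap, and the change was -1.67 (SE 0.37, adjusted p = 0.0116 in limma). Of its 3 tested probes 1 was lower. This probe was called in 17 of 19 alternatives and lost with a block for the slide row (adjusted p = 0.0578 in limma) and with the methods' t-test (0.105). Immt was also not called when the mean of its tested probes stood for the gene.

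Phb2, which forms rings with Phb in the inner membrane that bind the m-AAA protease, fell by 0.78 (SE 0.22, adjusted p = 0.0279 in limma), while Phb itself changed by 0.03 and was not called. That was 1 of 2 tested Phb2 probes, and its 5′ minus 3′ difference became higher by 1.25 (SE 0.29, adjusted p = 0.00946 in limma). Afg3l1, a subunit of the m-AAA protease, fell by 0.82 (SE 0.23, adjusted p = 0.0308 in limma) at 1 of 5 tested probes. Parl, the rhomboid protease that cuts Pink1, fell by 0.60 (SE 0.18, adjusted p = 0.0405 in limma), and all 3 of its probes were lower. In each of these 3 genes the groups did not overlap. Of 19 alternatives the call was kept in 9 for Parl, 10 for Phb2 and 11 for Afg3l1. All 3 calls were lost with a block for the slide row. Those of Parl and Phb2 were also lost with the shift to the 75th percentile (adjusted p = 0.0544 and 0.0533 in limma) and with no mask of dim spots.

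The count was 2, Mief1 and Immt, without control replicate 2 or 4 or silenced replicate 1 or 3. In these settings 10.9%, 10.8%, 13.2% and 14.7% of all genes taken this way were called. With the mean of the tested probes of a gene the count was 4 (March5, Mief1, Parl and Rhot2), and with the probe nearest the 3′ end 4 (Immt, Mief1, Parl and Phb2). Without silenced replicate 4 it was 10, with 6 higher and 4 lower, where 17.1% of all genes taken this way were higher and 13.02% lower. With cyclic loess it was 13, with 9 higher and 4 lower, where 24.4% of all genes were higher and 13.5% lower. Of 20 genes of the wider list with a pair of probes, the 5′ minus 3′ difference became lower in 6 and higher in 1, where 31.8% and 7.11% of all pairs did.

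**Figure D4:**
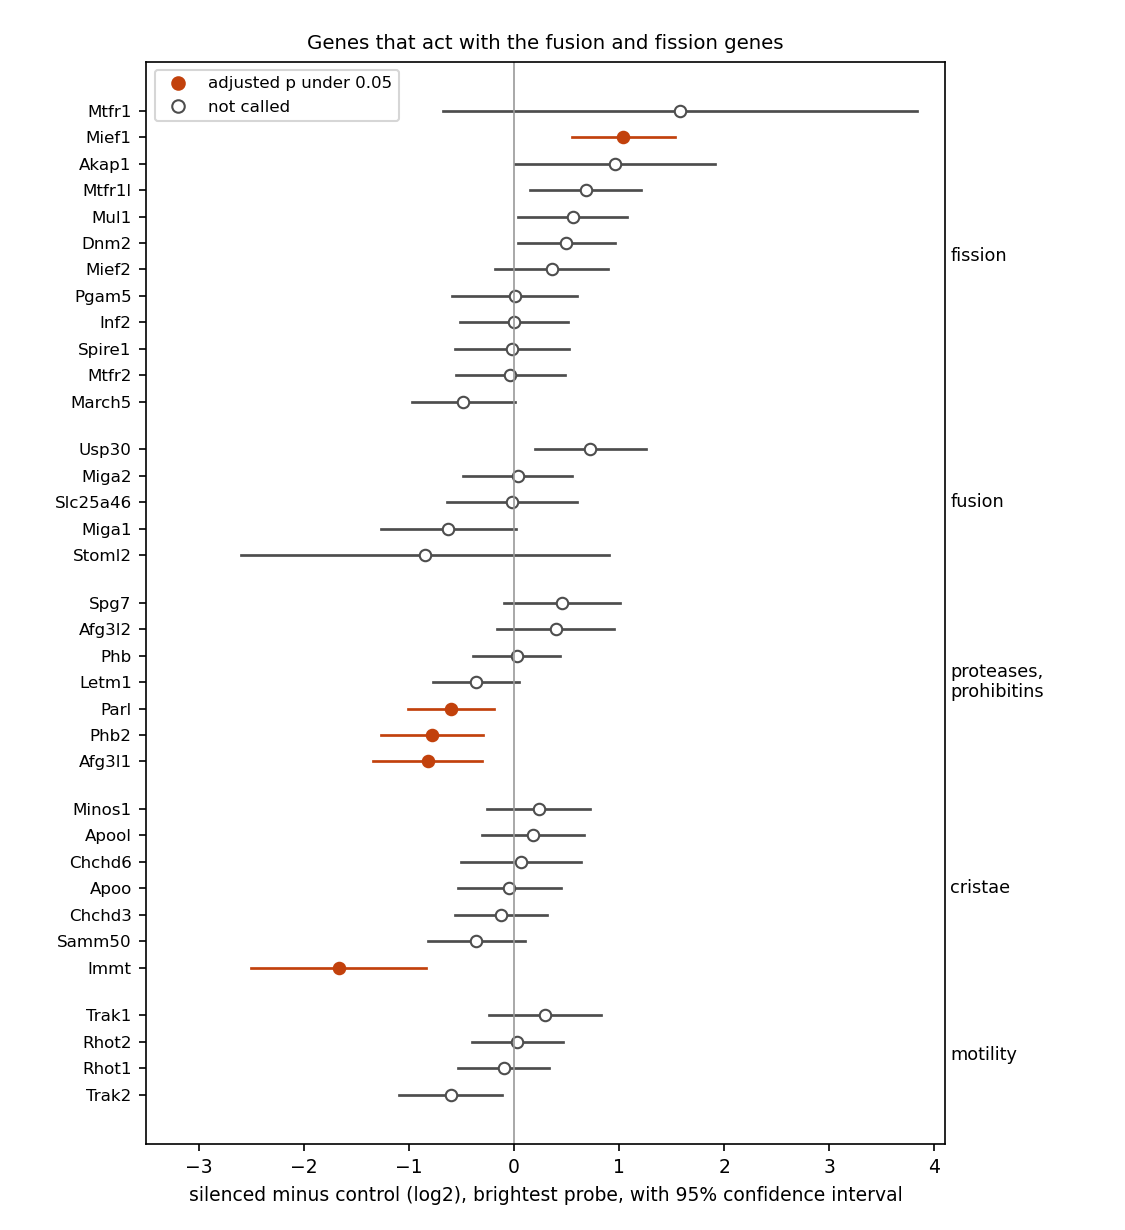
Change of 35 genes that act with the fusion and fission genes, silenced minus control on the log2 scale by brightest probe, with its 95% interval (x axis), in 5 groups by role (y axis); filled points have an adjusted p under 0.05. Mief1 at 1.04 is the called gene above 0, and Parl, Phb2, Afg3l1 and Immt lie between -0.60 and -1.67.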

How the data were processed

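RNA of 8 C2C12 cultures, 4 per group by the labels, was labelled with Cy3 and hybridised to one-colour Agilent mouse arrays that shared 1 slide and 1 scan. The authors deposited scanner files holding intensity on a linear scale, background-subtracted and detrended by Feature Extraction (12.0.0.7 per the file headers, 10.7.3.1 per the submitters' processing notes) and not normalized between arrays. The deposited flags (other units, 0 or 1) mark spots above background. A series table of intensity values that the authors had quantile normalized was an alternative.

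Spots not positive and significant were set to missing, as in the study's methods; outlier and control spots were also dropped. Log2 was then taken of the deposited intensities, followed by quantile normalization, averaging by probe and a fit of the 2 groups in limma 3.58.1 under R 4.3.3. Pairs were the outermost tested probes of a gene within 500000 bases. A probe below background throughout a group has a bound, the bright mean over the higher, per array, of the dim value and the lowest well-above-background value. Of 16 member probes with a RefSeq transcript, 16 matched the RefSeq gene table with the same symbol. The fits were tested on simulated data. Figures used matplotlib 3.10.9.

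Every member probe is covered, though some of Mff, Gdap1 and Mtfp1 without their identifiers. The called genes of the wider list and Pvt1 are named, and marker lists are given as counts and sums. The members and lists were chosen with earlier results of these data known. Alternatives covered scaling, background (normexp, offset 50), dim-spot filters, the series table, replicate number and slide row as blocks, a robust trended prior, the methods' t-test (unequal variances, here with Benjamini-Hochberg adjustment), other probes per gene and leaving out each array. Precision is limited by the number of arrays.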

Additional observations from a re-analysis of the deposited data

Results flagged for a closer look

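In 5 of 56 groups of 4 values 1 array stood far from the other 3. Chance alone gives about 1 in 20 for a single group. The 56 groups share the same arrays and are not independent, so their count cannot be set against that rate. Control replicate 3 read 11.98 at the Mfn2 probe A_51_P266774, against 10.94 to 11.07 on the other controls, and its Opa1 pair difference was 0.97 against 0.28 to 0.35. Silenced replicate 4 read 9.18 at the Yme1l1 probe A_52_P444849, against 9.96 to 10.09 on the other silenced arrays. On the same array 51.6% of spots were positive and significant, against 59.8% to 61.0%, and 36.8% were well above background, against 42.6% to 43.2%.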

How the results depend on the processing

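The counts given for the comparisons were 4 member probes, no member by brightest probe, 5 genes of the wider list and 3 member pairs. The replicate number as a block gave 2 member probes and 2 genes of the wider list, without the probes of Yme1l1 (adjusted p = 0.0621 in limma) and Fis1 (0.115). This block called 17.5% of all probes and 13.9% of all genes. It gave 3 pairs, losing Fis1 (0.0691) and gaining Mfn1 (0.0257). The numbers do not pair the arrays: deviations of same-numbered arrays correlated at -0.04, 0.19, 0.22 and 0.06, and 4 of 8 arrays correlated best with their own number. The slide row as a block gave 2 member probes, 1 gene of the wider list and 1 pair. It called 10.85% of all probes and 8.05% of all genes. The methods' t-test gave 1 member probe and 3 genes of the wider list. That test called 11.9% of all probes and 10.3% of all genes. By brightest probe, the shift to the 75th percentile, normexp, the series table, no mask and the stricter filter on dim spots gave 1 member each. In these settings 27.7%, 22.6%, 22.2%, 19.5% and 26.2% of all genes were called. Cyclic loess gave 2 members, with 37.9% of all genes called. For the wider list cyclic loess gave 13 genes, normexp 9, no mask 9 and the authors' processed values 11, where 37.9%, 22.6%, 19.5% and 22.2% of all genes were called. The series table gave 1 pair. Leaving out 1 array gave 1 to 4 member probes, no member by brightest probe, 2 to 10 genes of the wider list and 1 to 4 pairs. The share called then lay between 13.5% and 31.05% of all probes, and between 10.8% and 30.1% of all genes. Of the comparisons of a single probe or pair with an alternative, 498 kept their side of the threshold (36 of these, none of them called, with the other sign), 60 lost the call, 13 gained it and none reversed a call; the cause of these changes was not tested. Pvt1 fell under every alternative run, from -3.14 to -2.19. The series table gave no test of that Pvt1 probe. Dim probes limit Gdap1, Oma1 and the 5′ probes of Mfn1 and Yme1l1.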
